A study of Mus musculus with 12 samples.

Results

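The genes described here are 9 cathepsins, the proteases of the endolysosome (Ctsa, Ctsb, Ctsc, Ctsd, Ctsh, Ctsl, Ctss, Ctsw and Ctsz), and Cst7, which encodes cystatin F, an inhibitor of cysteine cathepsins. They were found by gene name in each of 12 RNA-seq libraries of regulatory T cells (Treg), and they make up 10 of the 20725 genes that could be matched over all libraries. All 10 passed the filter on low counts and were tested. Their choice, and that of the gene lists set beside them, was made with earlier results of these data known.

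The cells were live Treg sorted as positive for CD45, CD4, CD69 and EGFP under Foxp3 control. They came from thrombus, from vein wall and, as the lymphoid reference, from spleen of DEREG mice, a C57BL/6 strain that carries a bacterial artificial chromosome with a fusion of the diphtheria toxin receptor and EGFP driven by Foxp3. The inferior vena cava of the donor mice had been ligated, a model of deep vein thrombosis with reduced flow, and tissue was taken at day 14. The spleen cells therefore share the transgene, the ligation and the CD69 gate with the other cells, and no library of an unligated mouse was analysed here. Each tissue had 4 libraries. Whether a library holds 1 mouse or a pool is not stated in the labels, nor that samples came from separate mice, so the p-values cover differences among libraries that may be technical.

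Libraries held 9719151 to 55386086 total exon reads. Spleen 3 with 4 and vein wall 3 with 4 differed far less than the other 16 of 18 replicate pairs (mean chi-square per gene 3.96 and 2.55, against 97 to 356), and each pair was summed and counted as 1 sample. This left 4 thrombus, 3 vein wall and 3 spleen samples. The deposited files come in 3 sets with different layouts and gene models: set 1 holds thrombus 1 and spleen 1, set 2 holds thrombus 2, vein wall 1 and spleen 2 on NCBI models, and set 3 holds the rest. All 9 Treg markers, Foxp3 among them, had reads in every tissue, and their summed level was 6835 to 8425 CPM in thrombus, 7481 to 8798 CPM in vein wall and 6524 to 7779 CPM in spleen (CPM, reads scaled by TMM-adjusted library size). Foxp3 itself was less even. It had 559.6, 277, 532 and 709.8 CPM in thrombus 1 to 4. In vein wall 1, 2 and 3-4 it had 356, 487 and 373 CPM, and in spleen 1, 2 and 3-4 551, 403 and 678 CPM. Its lowest values were those of thrombus 2 and vein wall 1.

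Cathepsins are made as inactive precursors and matured in acidic endosomes and lysosomes, where they degrade proteins and process antigen. Most of those measured here are cysteine proteases, whereas cathepsin D is an aspartic protease and cathepsin A a serine carboxypeptidase. Cystatin F differs from the secreted cystatins in that it acts inside the endolysosome. In cytotoxic lymphocytes it restrains cathepsin C, the dipeptidyl peptidase that activates granzymes, while in antigen-presenting cells cathepsin S cleaves the invariant chain of major histocompatibility complex (MHC) class II.

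The promoters of 4 members are shown because of 2 patterns described below. Ctsa and Ctsd had the highest correlation of the 45 pairs of members, and their windows share a motif. Whether the motif bears on the correlation was not tested. Ctss and Cst7 had the highest levels per exon length. RefSeq promoter windows of GRCm38.p6, from 250 bases before to 50 bases after the annotated start, were found for 7 of the 10 members. Ctsb, Ctsh and Ctsw were not among them. Windows were searched on both strands for TCACGTGA, the core of the element known as CLEAR through which TFEB and its relatives bind lysosomal genes, and for the shorter CACGTG contained in it. Both words read the same on either strand. Capitals mark a match to either word, and sequences run 5′ to 3′.

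Ctsa, chr2:164833523-164833822, plus strand: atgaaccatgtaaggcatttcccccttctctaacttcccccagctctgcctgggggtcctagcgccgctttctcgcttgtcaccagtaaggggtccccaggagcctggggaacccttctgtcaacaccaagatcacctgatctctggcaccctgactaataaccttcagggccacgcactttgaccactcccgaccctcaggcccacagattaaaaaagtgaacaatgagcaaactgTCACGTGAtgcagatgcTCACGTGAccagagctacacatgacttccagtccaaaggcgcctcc
Ctsd, chr7:142387778-142388077, minus strand: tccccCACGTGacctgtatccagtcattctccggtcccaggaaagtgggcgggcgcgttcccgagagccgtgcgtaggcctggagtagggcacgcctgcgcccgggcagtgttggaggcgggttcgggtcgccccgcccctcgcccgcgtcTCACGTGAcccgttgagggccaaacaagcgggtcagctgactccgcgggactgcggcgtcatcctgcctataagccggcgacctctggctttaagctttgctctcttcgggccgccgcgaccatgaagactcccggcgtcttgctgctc
Ctss, chr3:95526536-95526835, plus strand: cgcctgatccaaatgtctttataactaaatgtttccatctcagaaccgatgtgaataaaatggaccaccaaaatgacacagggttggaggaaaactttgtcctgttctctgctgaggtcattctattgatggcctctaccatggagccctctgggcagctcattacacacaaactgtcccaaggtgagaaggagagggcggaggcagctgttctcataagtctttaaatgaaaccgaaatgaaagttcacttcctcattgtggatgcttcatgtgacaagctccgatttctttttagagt
Cst7, chr2:150570165-150570464, plus strand: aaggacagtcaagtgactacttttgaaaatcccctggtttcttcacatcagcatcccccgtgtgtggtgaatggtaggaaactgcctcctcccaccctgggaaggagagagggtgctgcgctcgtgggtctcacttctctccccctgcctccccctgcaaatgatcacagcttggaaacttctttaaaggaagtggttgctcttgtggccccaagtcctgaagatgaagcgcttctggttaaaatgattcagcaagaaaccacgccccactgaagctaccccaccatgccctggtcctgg

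TCACGTGA occurred in 320 of 32851 mouse promoter windows, a share of 0.974%. Of the 8 windows of the matched members it was found in 2: it occurs 2 times in the Ctsa window shown and 1 time in the Ctsd window, which also holds a separate CACGTG. Ctsa has another annotated start whose window, not shown, holds neither word. The Ctsa window shown was printed because it holds a match. It begins at base 164833523, inside the Ctsa gene, which begins at base 164832873 in sets 1 and 3. CACGTG occurred in 7.15% of all windows and, among the members, in those of Ctsa, Ctsd and Ctsl. The Ctss and Cst7 windows hold no match to either word. In the list of 36 lysosomal hydrolases and membrane proteins, 28 genes had a window and 3 of them, Cln3, Gla and Mcoln1, held TCACGTGA. A match describes the letters of the window and is not a measured binding site.

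Per exon length, cathepsin S, cystatin F, cathepsin Z and cathepsin B RNA had the highest mean levels in the samples of all 3 tissues. Cathepsin L and H RNA had the lowest mean CPM in each tissue. Per exon length, cathepsin C averaged slightly below cathepsin H in thrombus and vein wall. On average Cst7 was lower and Ctsw higher in thrombus and vein wall than in spleen, and Ctss was higher in vein wall, but none of the 10 members passed an adjusted p of 0.05 in any comparison between tissues. Log2 fold changes are given for the first tissue named over the second. For thrombus against spleen the count was 0 of 10 members, with 0.146% of the 11616 genes tested called. For vein wall against spleen it was 0 of 10, with 0.112% of genes called, and for thrombus against vein wall 0 of 10, with 0% called. These calls are from edgeR's quasi-likelihood test with Benjamini-Hochberg adjustment over all genes tested. The last comparison had 338 genes at an unadjusted p under 0.05, and DESeq2 called 0.0861% of genes in it, no member among them; in thrombus and vein wall against spleen DESeq2 called 0.904% and 1.05% of genes and again no member. With the set of files as a covariate 0.456%, 0.413% and 0% of genes were called in the 3 comparisons, and again no member. Because these are sorted bulk samples, fewer cells of a type and less RNA per cell cannot be told apart.

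**Figure D1:**
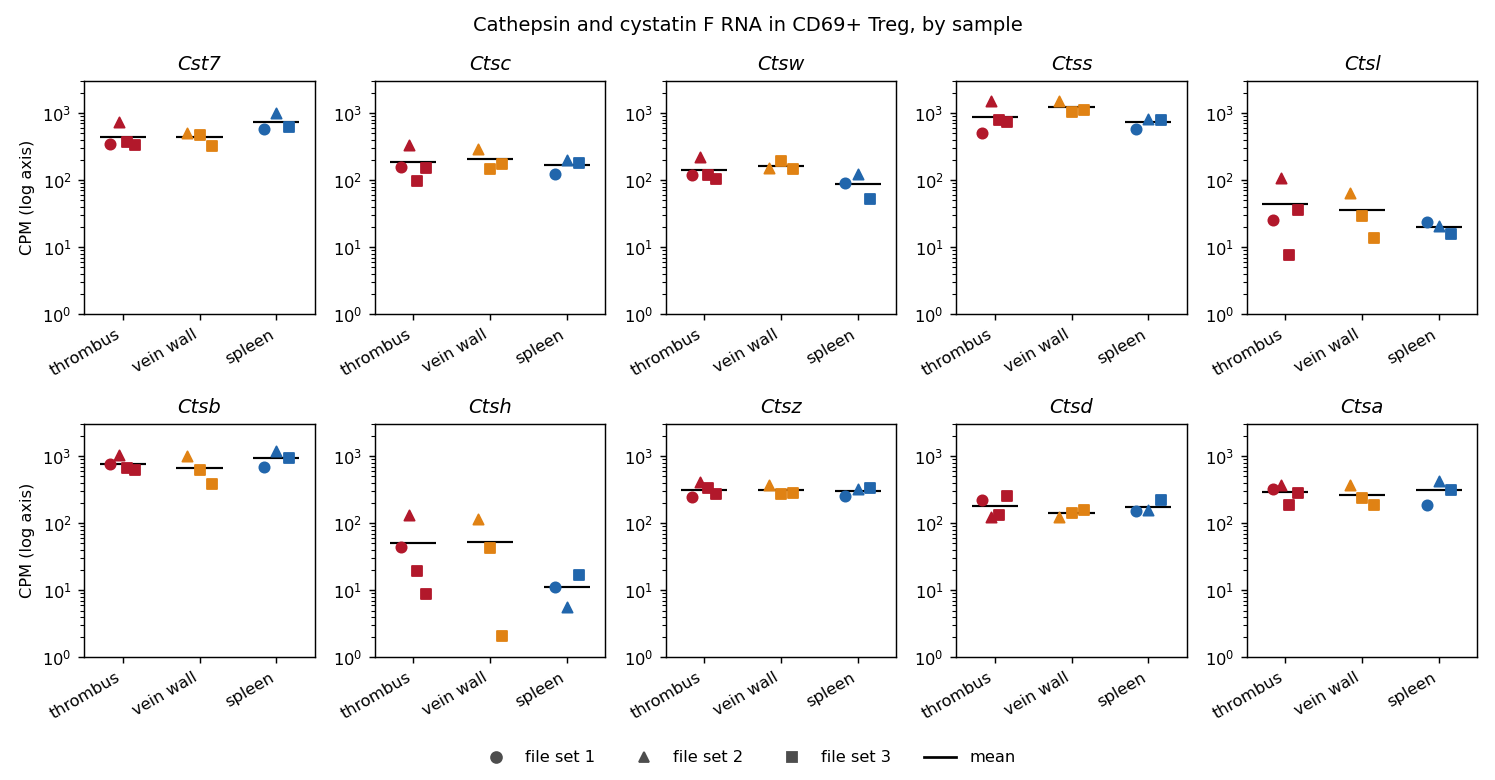
CPM of each member (log axis) in thrombus, vein wall and spleen; each point is a sample, its shape gives the set of files and the line is the tissue mean. Cst7 is lower and Ctsw higher in most thrombus and vein wall samples than in spleen, and Ctsh and Ctsl have the widest spread.

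The inhibitor gene Cst7 (ENSMUSG00000068129, chr2:150570415-150578944 of GRCm38, plus strand) averaged lower in thrombus and in vein wall than in spleen. It had 341, 732, 366 and 336 CPM in thrombus 1 to 4, 505, 465 and 325 CPM in vein wall 1, 2 and 3-4, and 587, 1016 and 624 CPM in spleen 1, 2 and 3-4. All 3 vein wall samples lay below all 3 spleen samples, while thrombus 2 lay within the spleen range. No member separated thrombus from spleen in either direction, where 2.5% of all genes did so upwards and 2.5% downwards. Mean levels were 444 ± 193 CPM in thrombus (SD, n = 4), 432 ± 94.7 CPM in vein wall and 742 ± 238 CPM in spleen (SD, n = 3 each).

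The log2 fold change of Cst7 was -0.74 ± 0.35 in thrombus against spleen (SE, adjusted p = 1, edgeR) and -0.78 ± 0.38 in vein wall against spleen (adjusted p = 0.901). With file set added to the model it was -0.72 ± 0.21 (adjusted p = 0.247) and -0.78 ± 0.24 (adjusted p = 0.323). Within the sets, thrombus minus spleen was -0.78 in set 1, -0.47 in set 2 and -0.83 in set 3, as a difference of mean log2(CPM + 1). Vein wall minus spleen was -1.01 in set 2 and -0.68 in set 3. Without spleen 2, which had the highest Cst7 level, the values against spleen were -0.43 in thrombus and -0.46 in vein wall (adjusted p = 1 and 0.938, tissue only). Thrombus and vein wall overlapped, with a log2 fold change between them of 0.04 (95% interval -0.69 to 0.77, adjusted p = 0.999).

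Cst7 was the single member below spleen in each of the 3 sets in thrombus, where 15.4% of all genes tested met that rule. It was also the single member whose vein wall samples all lay below all spleen samples, where 6.49% of genes did. Its exon model of 986 bases was identical in the 3 sets and all of its reads were unique, so neither gene models nor multiple matches differ between its values.

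Ctsc (ENSMUSG00000030560, chr7:88278085-88310888), the granzyme-activating protease that cystatin F inhibits, had overlapping levels in all tissues. It had 97.5 to 329 CPM in thrombus, 144 to 293 CPM in vein wall and 125 to 201 CPM in spleen. Its log2 fold changes were 0.12 ± 0.40 in thrombus and 0.27 ± 0.43 in vein wall against spleen (SE, adjusted p = 1 and 0.980, edgeR). The exon model of Ctsc is 11143 bases in set 2 against 5808 and 5326 bases in sets 1 and 3, and its 2 highest values, 329 CPM in thrombus 2 and 293 CPM in vein wall 1, are both of set 2.

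Ctsw (ENSMUSG00000024910, chr19:5465240-5468498, minus strand) encodes cathepsin W, a protease known from CD8 T cells and natural killer cells. Its level was 119, 220.0, 119 and 104 CPM in thrombus 1 to 4, 154, 193 and 146 CPM in vein wall 1, 2 and 3-4, and 89.4, 124 and 52.5 CPM in spleen 1, 2 and 3-4. The vein wall samples all lay above the spleen samples, and thrombus overlapped spleen through spleen 2. Means were 141 ± 53.4 CPM in thrombus (SD, n = 4), 165 ± 25 CPM in vein wall and 88.6 ± 35.8 CPM in spleen (SD, n = 3 each).

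The log2 fold change of Ctsw was 0.67 ± 0.38 in thrombus against spleen (SE, adjusted p = 1, edgeR) and 0.89 ± 0.40 in vein wall against spleen (adjusted p = 0.888). With file set added to the model these were 0.75 ± 0.31 (adjusted p = 0.616) and 1.07 ± 0.36 (adjusted p = 0.369). In the fit on tissue only the thrombus value was 0.37 without thrombus 2, 0.40 without spleen 3-4 and 1.01 without spleen 2 (adjusted p = 0.994, 0.999 and 1). Inside the sets thrombus minus spleen was 0.42, 0.82 and 1.07 in set 1, set 2 and set 3 on log2(CPM + 1), and vein wall minus spleen was 0.31 in set 2 and 1.66 in set 3. Together with Ctsl, Ctsw was 1 of 2 members above spleen in all 3 sets in thrombus, a pattern that 12.8% of all genes tested met. Together with Ctss, it was 1 of 2 members whose vein wall samples all exceeded the spleen samples, as did 6.74% of genes.

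The gene model matters for Ctsw. In set 2 it spans 3357 exon bases and overlaps Fibp on the opposite strand, while in sets 1 and 3 it spans 1232 bases with no overlap. The library kit does not mark strand, so Fibp reads in the overlap cannot be told apart from Ctsw reads in set 2. Without set 2 the log2 fold changes of Ctsw against spleen were 0.71 ± 0.37 in thrombus and 1.29 ± 0.40 in vein wall (SE, adjusted p = 1 and 0.746, edgeR). Markers of CD8 T and natural killer cells are given further below, since this gene is known from those cells.

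Ctss (ENSMUSG00000038642, chr3:95526786-95556403, plus strand) encodes cathepsin S, the invariant chain protease. It had 505, 1535, 777 and 728 CPM in thrombus 1 to 4, 1502, 1020.3 and 1106 CPM in vein wall 1, 2 and 3-4, and 584, 820.1 and 774 CPM in spleen 1, 2 and 3-4. Vein wall lay wholly above spleen, whereas thrombus held both the lowest and the highest of the 10 values. Mean levels were 886 ± 449 CPM in thrombus (SD, n = 4), 1209 ± 257 CPM in vein wall and 726 ± 125 CPM in spleen (SD, n = 3 each).

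For Ctss the log2 fold change was 0.74 ± 0.38 in vein wall against spleen (SE, adjusted p = 0.922, edgeR) and 0.56 ± 0.24 with file set in the model (adjusted p = 0.586). In thrombus against spleen it was 0.29 ± 0.35 (adjusted p = 1). That small thrombus difference rests on thrombus 2: without this sample the value was -0.10. Thrombus against vein wall gave -0.45 ± 0.35 (adjusted p = 0.999), with a 95% interval of -1.18 to 0.29. This value too varied with single samples: it was -0.85 without thrombus 2 (interval -1.48 to -0.22, adjusted p = 0.635), -0.25 without thrombus 1 and -0.28 without vein wall 1.

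Ctsl (ENSMUSG00000021477, chr13:64359337-64370890, minus strand) encodes cathepsin L, an endopeptidase, and Ctsh (ENSMUSG00000032359, chr9:90054152-90076089, plus strand) encodes cathepsin H, an aminopeptidase. Both were low and uneven. Ctsl had 25.5, 108, 7.55 and 36 CPM in thrombus 1 to 4, 64.6, 29.4 and 13.5 CPM in vein wall 1, 2 and 3-4, and 24.1, 21 and 15.7 CPM in spleen 1, 2 and 3-4. Ctsh had 44.8, 133, 19.6 and 8.76 CPM in thrombus 1 to 4, 115, 43.4 and 2.1 CPM in vein wall 1, 2 and 3-4, and 11.2, 5.61 and 17 CPM in spleen 1, 2 and 3-4.

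The highest of these values are those of thrombus 2 and vein wall 1, both of set 2, and the third sample of that set, spleen 2, was low for both genes. For Ctsl the highest sample held 14.3 times the lowest in thrombus, 4.79 times in vein wall and 1.54 times in spleen. For Ctsh it held 15.2 times the lowest in thrombus, 54.5 times in vein wall and 3.04 times in spleen, the widest spleen spread of the 10 members. The lowest counts behind these values were 71 reads for Ctsl in thrombus 3 and 84 reads for Ctsh in vein wall 3-4, both above the floor of 3 reads that a count of 0 allows.

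The log2 fold change of Ctsh was 2.19 ± 1.24 in thrombus and 2.24 ± 1.29 in vein wall against spleen (SE, adjusted p = 1 and 0.957, edgeR). For Ctsl it was 1.13 ± 0.72 in thrombus and 0.82 ± 0.75 in vein wall (adjusted p = 1 and 0.963). Without thrombus 2 and vein wall 1 the Ctsh values were 1.11 ± 0.89 and 1.04 ± 0.97 (adjusted p = 0.957 and 0.882), and the Ctsl values 0.19 ± 0.64 and 0.10 ± 0.71 (adjusted p = 0.984 and 0.986). Within set 3 the differences of Ctsh from spleen were -0.35 in thrombus and -0.62 in vein wall on log2(CPM + 1), with samples on both sides of spleen 3-4 in each tissue.

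**Figure D2:**
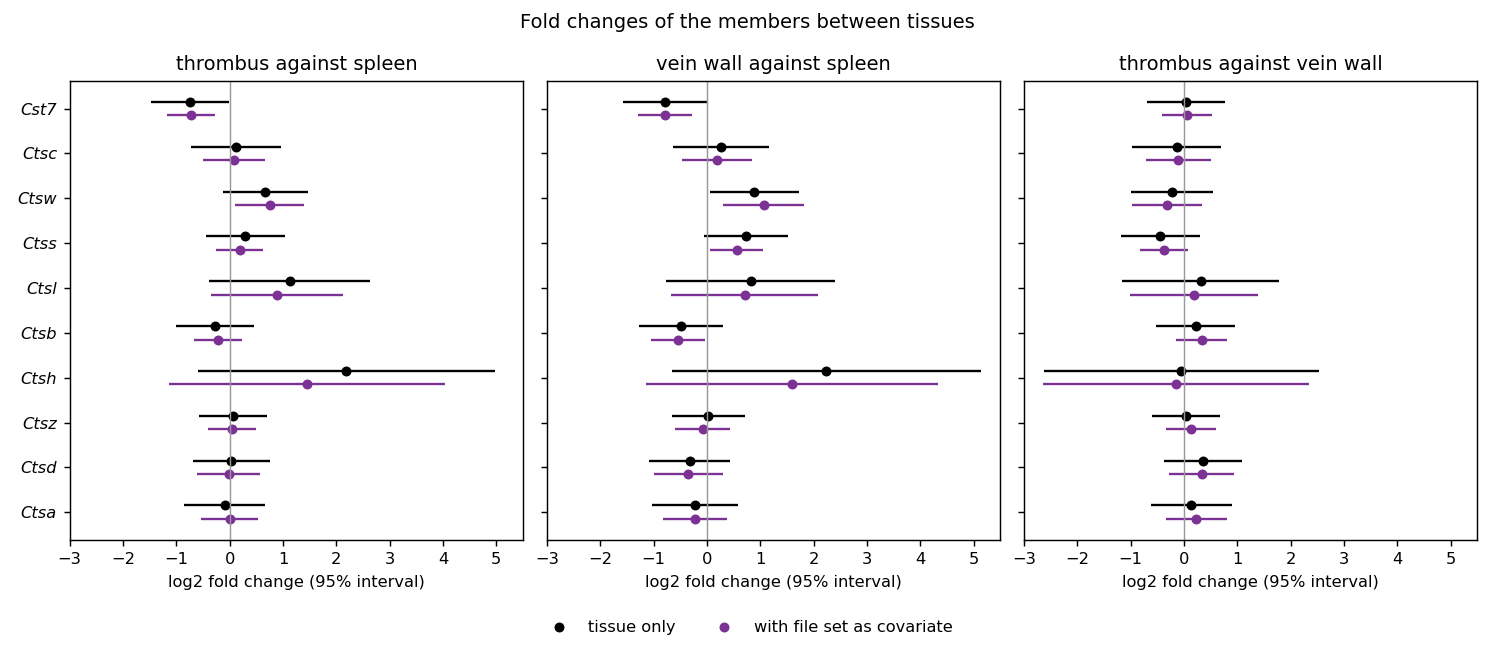
Log2 fold change of each member with its 95% interval (edgeR) in thrombus against spleen, vein wall against spleen and thrombus against vein wall, from the fit on tissue only and the fit with file set in the model. Ctsh and Ctsl have the widest intervals, and in thrombus against vein wall every interval drawn includes 0.

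Ctsb (ENSMUSG00000021939, chr14:63122462-63145923, plus strand) encodes cathepsin B, an abundant lysosomal cysteine protease. It had 759.7, 1057, 676 and 623 CPM in thrombus 1 to 4, 1009, 620.4 and 379.9 CPM in vein wall 1, 2 and 3-4, and 687, 1203 and 929 CPM in spleen 1, 2 and 3-4. All 3 tissues overlapped, with the lowest value in vein wall 3-4. Its log2 fold change in vein wall against spleen was -0.49 ± 0.37 (SE, adjusted p = 0.963, edgeR), and -0.54 ± 0.24 with file set in the model (adjusted p = 0.603). The vein wall value on tissue only was -0.24 without spleen 2, -0.21 without vein wall 3-4 and -0.89 without vein wall 1. In thrombus against spleen it was -0.27 ± 0.35 (adjusted p = 1).

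Ctsz (ENSMUSG00000016256, chr2:174427493-174439039, minus strand), which encodes the carboxypeptidase cathepsin Z, was the most even member. Its 10 values ran from 246 to 409 CPM, so that the highest was 1.66 times the lowest, against 63.2 times for Ctsh. It had 246 to 409 CPM in thrombus, 270.4 to 373 CPM in vein wall and 254 to 332 CPM in spleen. The log2 fold changes of Ctsz were 0.06 with a 95% interval of -0.57 to 0.70 in thrombus against spleen and 0.03 with an interval of -0.65 to 0.71 in vein wall against spleen (adjusted p = 1 and 0.999, edgeR).

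Ctsd (ENSMUSG00000007891, chr7:142375911-142388038, minus strand) encodes the aspartic protease cathepsin D. It had 219, 124, 131 and 252 CPM in thrombus 1 to 4, 126, 141 and 159 CPM in vein wall 1, 2 and 3-4, and 150.3, 158 and 224 CPM in spleen 1, 2 and 3-4. Ctsa (ENSMUSG00000017760, chr2:164832873-164841032, plus strand) encodes cathepsin A, also called protective protein because it stabilises lysosomal beta-galactosidase and neuraminidase. It had 324, 369.5, 185 and 280.0 CPM in thrombus 1 to 4, 372, 237 and 185 CPM in vein wall 1, 2 and 3-4, and 186, 428 and 312 CPM in spleen 1, 2 and 3-4. For both genes the tissues overlapped.

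Against spleen the log2 fold changes of Ctsd were 0.03 ± 0.34 in thrombus and -0.32 ± 0.37 in vein wall (SE, adjusted p = 1 and 0.966, edgeR). Those of Ctsa were -0.09 ± 0.36 and -0.22 ± 0.39 (adjusted p = 1 and 0.980). Reads of Ctsd were 13.04% unique in set 1 and 16.31% in set 3, where the model overlaps another gene of the same strand, and 100% unique in set 2. In thrombus against spleen Ctsd had no settled direction: on unique reads the value was -0.39 ± 0.90 with tissue only and 0.06 ± 0.39 with file set in the model, and on total reads with file set it was -0.02 ± 0.28 (adjusted p = 1, 1 and 0.999).

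Levels between genes were compared per exon length, as CPM per kb of the exon model of each file set. In thrombus the order was Ctss at 635 ± 297, Cst7 at 450.0 ± 196, Ctsz at 221 ± 49.8 and Ctsb at 164 ± 40.9 CPM per kb (SD, n = 4), and then Ctsw, Ctsd, Ctsa, Ctsh, Ctsc and Ctsl. In that order Cst7 stood apart from Ctsz and Ctsb from Ctsw, and the other 7 pairs of neighbours overlapped. In vein wall Ctss led at 868 ± 151 and Cst7 followed at 438 ± 96 CPM per kb (SD, n = 3), with no overlap between them or between Cst7 and Ctsz, which had 215 ± 38.1. The lowest was Ctsl at 8.32 ± 8.64 CPM per kb.

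In spleen the first places were the other way round: Cst7 had 753 ± 241 and Ctss 522 ± 79.7 CPM per kb (SD, n = 3), and their ranges did not overlap. Ctsz at 211 ± 30.3 and Ctsb at 198 ± 54.3 CPM per kb came next and overlapped. Ctsl at 6.88 ± 4.95 and Ctsh at 5.31 ± 3.75 CPM per kb were the lowest and overlapped. The exon models of Ctsl, Ctsc, Ctsh and Ctsw differ most in length between the sets, so their levels per kb shift with the model as well.

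**Figure D3:**
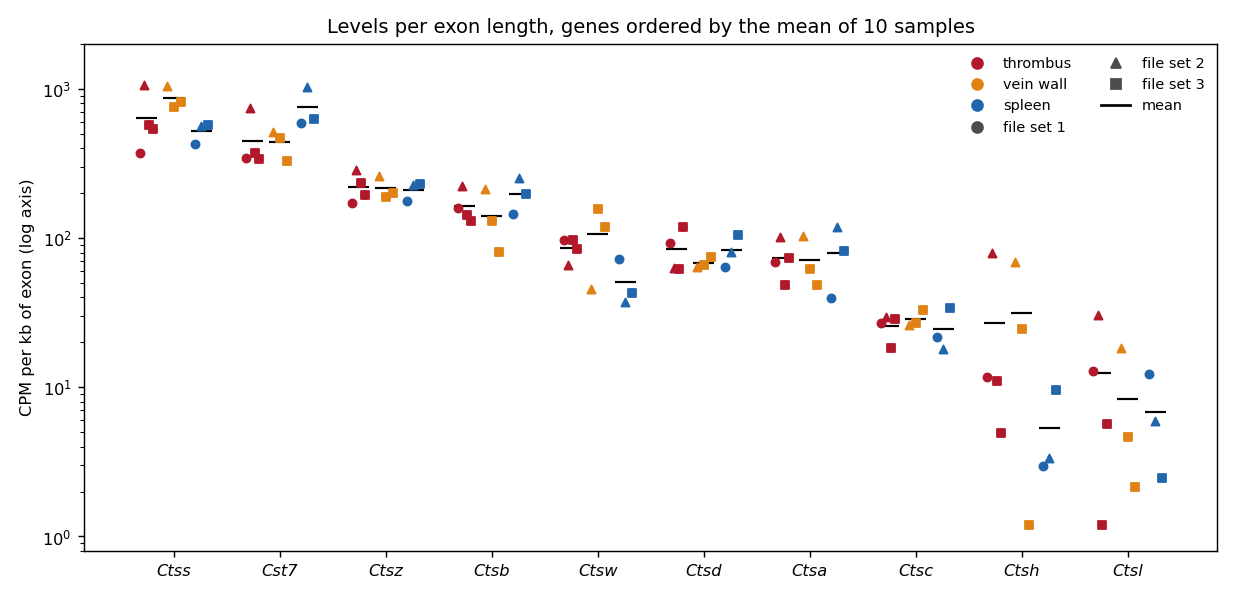
CPM per kb of exon (log axis) of the members in thrombus, vein wall and spleen; points are samples shaped by set of files, lines are tissue means, and genes are ordered by their mean over 10 samples. Ctss and Cst7 lead in every tissue, with Ctss first in thrombus and vein wall and Cst7 first in spleen.

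The ratio of Ctss to Cst7 was formed after these values were seen and is given without a test. Per exon length it was 1.08, 1.43, 1.54 and 1.58 in thrombus 1 to 4, 2.03, 1.59 and 2.47 in vein wall 1, 2 and 3-4, and 0.723, 0.55 and 0.9 in spleen 1, 2 and 3-4. Spleen lay under 1 in all 3 samples and the other tissues above 1 in all 7. How many other pairs of genes separate the tissues in this way was not counted, and neither gene was called. The ratio is taken within a sample, so it does not depend on library scaling, and the exon models are of like length in all sets, 1358 or 1447 bases for Ctss and 986 for Cst7. Summed over the 10 members, levels were 2717 to 5017 CPM in thrombus, 2778 to 4513 CPM in vein wall and 2698 to 4303 CPM in spleen. In each tissue the highest sum was in the sample of set 2.

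**Figure D4:**
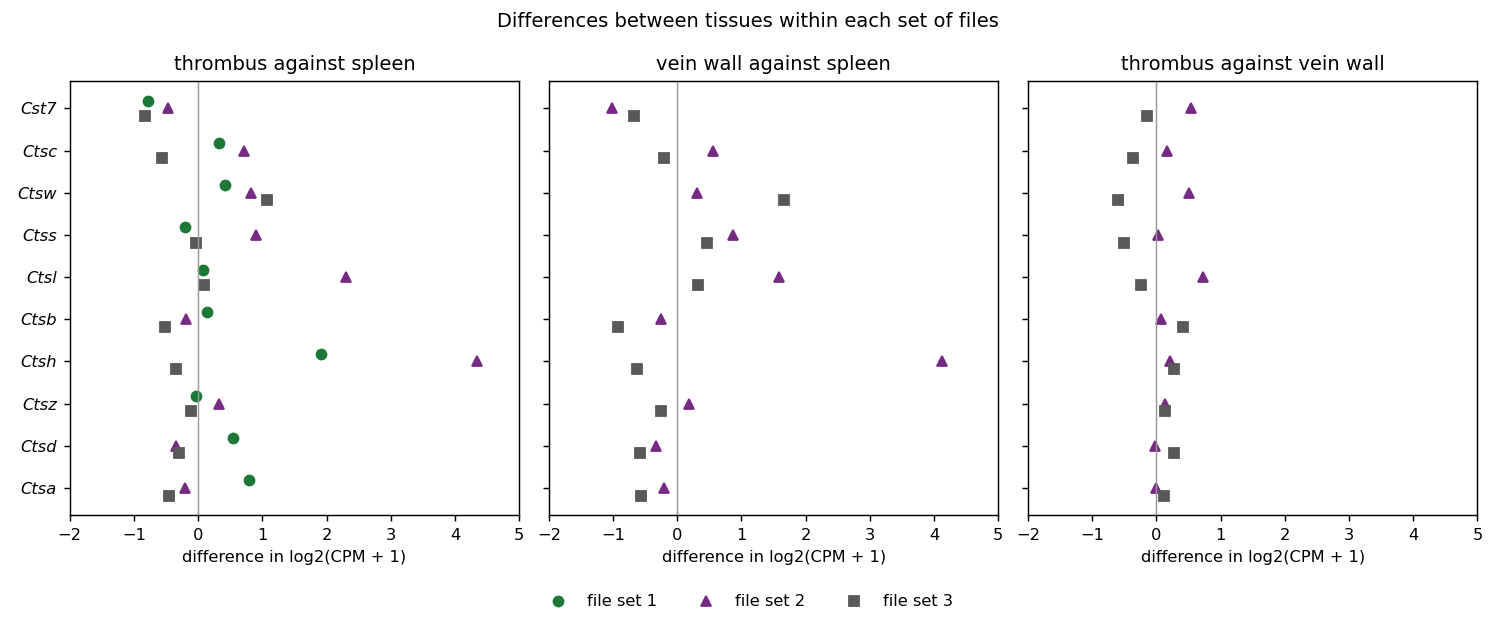
Difference of mean log2(CPM + 1) between tissues within each set of files, for each member; set 1 holds no vein wall sample. Cst7 lies below 0 and Ctsw above 0 against spleen in every set, while Ctsh ranges from -0.62 in set 3 to 4.34 in set 2.

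Agreement within sets was read against all genes tested. For vein wall against spleen, Ctsl, Ctss and Ctsw were higher in both sets that hold vein wall, as 24.9% of genes were, and Ctsa, Ctsb, Ctsd and Cst7 were lower in both, as 28.5% of genes were. For thrombus against vein wall, Ctsb, Ctsh and Ctsz were higher in both sets, as 22.8% of genes were, and no member was lower in both, as 22.5% of genes were. No member had thrombus samples all above or all below the vein wall samples, as 2.33% and 1.49% of genes did. The median log2 fold change of the 10 members was 0.09 in thrombus against spleen, 0.15 in vein wall against spleen and 0.04 in thrombus against vein wall, beside medians of 0.03, -0.01 and 0.04 over all genes tested. At an unadjusted p under 0.05 the counts were 1, 1 and 0 members of 10, and 4.16%, 5.44% and 2.91% of all genes tested.

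Members were also compared with each other over the 10 samples, on log2(CPM + 1) after each set's mean was subtracted. Ctsa and Ctsd had the highest Pearson r of the 45 pairs, 0.84, and Ctsb and Ctsw the lowest, -0.63. The r of Ctsa and Ctsd rests on total reads, and Ctsd reads were only 13.04% unique in set 1 and 16.31% in set 3. Cst7 had r = 0.56 with Ctsb, -0.38 with Ctss and -0.50 with Ctsw. Among all other genes tested, the most alike to Cst7 by the same measure were Timm9 (r = 0.980), Gimap7 (r = 0.962) and Klrb1c (r = 0.937). Klrb1c, a natural killer cell marker, had 2.8, 5.12, 0.213 and 0.0932 CPM in thrombus 1 to 4, 2.1, 1.03 and 0.677 CPM in vein wall 1, 2 and 3-4, and 18.6, 40.1 and 14.5 CPM in spleen 1, 2 and 3-4. All spleen samples of Klrb1c lay above all others, as 2.5% of genes tested did against thrombus and 6.49% against vein wall. Eomes, another marker of these cells, averaged 0.441 CPM in thrombus, 4.36 CPM in vein wall and 10.3 CPM in spleen. Its spleen values were 21.3, 0.0539 and 9.59 CPM in spleen 1, 2 and 3-4. Of the 9 CD8 T and natural killer cell markers 3 had their highest mean in spleen, and the rest in thrombus or vein wall. Ncr1 had 8.19, 11.6 and 4.83 CPM in thrombus, vein wall and spleen. The part of such cells in the Cst7 difference was not tested. The most alike to Ctsw was Bcl2a1b (r = 0.957), to Ctss Tmcc3 (r = 0.964), to Ctsa Lrrfip1 (r = 0.974), to Ctsd Kdelr1 (r = 0.967) and to Ctsh Trat1 (r = 0.976). These are the best of 11616 genes over 10 samples that share libraries and depth, and they are descriptions only. Subtracting each set's mean leaves fewer free values than 10 behind every r, and the 2 samples of set 1 take equal and opposite values.

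Other cathepsins were mostly at or near 0 reads. Of 14 further cathepsin genes, 11 did not pass the filter on low counts, and Ctsg and Cts7 had no read in any sample. Ctso, Ctse and Ctsf were tested and none was called. Ctso had 139 ± 45.3 CPM in thrombus (SD, n = 4), 106 ± 35.5 CPM in vein wall and 93.6 ± 15.3 CPM in spleen (SD, n = 3 each), and Ctse had 37.9 ± 25.4 CPM in thrombus, 41.5 ± 11 CPM in vein wall and 48 ± 32.1 CPM in spleen.

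Among 16 other cathepsin inhibitors, 7 were tested and none was called. Ctla2a, a T cell gene whose product resembles a cysteine protease propeptide and inhibits cathepsin L, had 78.3, 130.4, 128 and 148 CPM in thrombus 1 to 4, 213, 134 and 84.6 CPM in vein wall 1, 2 and 3-4, and 47.7, 64.2 and 31 CPM in spleen 1, 2 and 3-4. Both thrombus and vein wall lay wholly above spleen. Its log2 fold change was 1.35 ± 0.41 in thrombus and 1.59 ± 0.43 in vein wall against spleen (SE, adjusted p = 0.571 and 0.385, edgeR), and adjusted p was 0.129 and 0.151 with file set in the model.

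Serpina3g, a serpin known in mouse to inhibit cysteine cathepsins in the cytosol, was in the opposite order. It had 277, 321, 198 and 127 CPM in thrombus 1 to 4, 229, 173 and 155 CPM in vein wall 1, 2 and 3-4, and 427, 530.3 and 453 CPM in spleen 1, 2 and 3-4. Spleen lay wholly above the other tissues, as it did for 2.5% of all genes tested against thrombus and 6.49% against vein wall. The log2 fold change was -1.03 ± 0.34 in thrombus and -1.34 ± 0.37 in vein wall against spleen (SE, adjusted p = 0.686 and 0.401, edgeR), with adjusted p = 0.0939 and 0.0563 with file set in the model. Serpina3g belongs to a family of near-identical genes whose reads may be shared.

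Cstb, the cytosolic inhibitor stefin B, averaged 238 ± 104 CPM in thrombus (SD, n = 4), 342 ± 63.1 CPM in vein wall and 196 ± 65.4 CPM in spleen (SD, n = 3 each), with a log2 fold change of 0.81 ± 0.40 in vein wall against spleen (adjusted p = 0.910). Stfa3 had 51 reads over the thrombus samples, 18 over vein wall and 0 over spleen. The median of the 7 tested inhibitors was 0.28 in thrombus and 0.81 in vein wall against spleen, beside 0.03 and -0.01 over all genes tested. In both comparisons 6 of the 7 had positive log2 fold changes, and Serpina3g a negative one. With file set in the model 4 were positive and 3 negative in thrombus, 5 were positive and 2 negative in vein wall, and the medians were 0.23 and 0.60.

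Of the 36 lysosomal hydrolases and membrane proteins, all were tested and none was called in any comparison. Against spleen, 23 had positive log2 fold changes and 13 negative ones in thrombus, and 18 each in vein wall, with medians of 0.10 and -0.02. Gla, the alpha-galactosidase gene, had 23.5, 108, 45.8 and 61.1 CPM in thrombus 1 to 4, 93.6, 59 and 32.8 CPM in vein wall 1, 2 and 3-4, and 6.97, 7.44 and 20.5 CPM in spleen 1, 2 and 3-4. All 7 thrombus and vein wall samples exceeded the spleen samples, as 2.5% of all genes tested did in thrombus and 6.74% in vein wall. Log2 fold changes of Gla were 2.35 ± 0.61 and 2.40 ± 0.63 (SE, adjusted p = 0.325 and 0.365, edgeR). Gla, like Ctla2a and Serpina3g, was named for its small p in these same data.

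Lamp1, a major lysosomal membrane protein, averaged 62.7 ± 40.1 CPM in thrombus (SD, n = 4), 53.1 ± 25.1 CPM in vein wall and 136 ± 72.6 CPM in spleen (SD, n = 3 each). Cln3, a lysosomal membrane protein of Batten disease, had 51.6 ± 10.5 CPM in thrombus (SD, n = 4), 21.9 ± 11.1 CPM in vein wall and 68 ± 15.1 CPM in spleen (SD, n = 3 each). For vein wall against spleen the log2 fold change of Cln3 was -1.64 ± 0.49 (adjusted p = 0.497). Among 13 tested genes of acidification, sorting and transcription control, none was called. Tfe3, a relative of TFEB, had 30.3 ± 20.1, 6.17 ± 4.66 and 22.3 ± 12.1 CPM in thrombus, vein wall and spleen, with a log2 fold change of 2.29 ± 0.83 in thrombus against vein wall (adjusted p = 0.999).

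Proteins of cytotoxic granules, among them the granzymes that cathepsin C activates, were given by 8 genes, of which all were tested and none was called. Gzma had 5.01, 91.8, 16.4 and 0 CPM in thrombus 1 to 4, 16.9, 24 and 0.0251 CPM in vein wall 1, 2 and 3-4, and 0, 0.108 and 0.729 CPM in spleen 1, 2 and 3-4. It was thus detected mostly in some thrombus and vein wall samples, and its log2 fold change of 6.46 ± 2.79 in thrombus against spleen did not pass (adjusted p = 1, edgeR). Nkg7 averaged 332 ± 206 CPM in thrombus (SD, n = 4), 514 ± 106 CPM in vein wall and 293 ± 155 CPM in spleen (SD, n = 3 each).

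MHC class II genes, whose pathway uses cathepsin S, were all 7 tested with none called. All 7 had positive log2 fold changes against spleen in thrombus and in vein wall, with medians of 2.18 and 2.35. With file set in the model the medians were 1.41 and 1.60, with 7 positive in thrombus and 6 positive and 1 negative in vein wall. H2-Ab1 had 617, 2217, 262 and 288 CPM in thrombus 1 to 4, 2361, 371 and 500.4 CPM in vein wall 1, 2 and 3-4, and 143, 60.4 and 357 CPM in spleen 1, 2 and 3-4. The highest values were again those of thrombus 2 and vein wall 1, and its adjusted p was 1 in thrombus and 0.919 in vein wall against spleen.

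**Figure D5:**
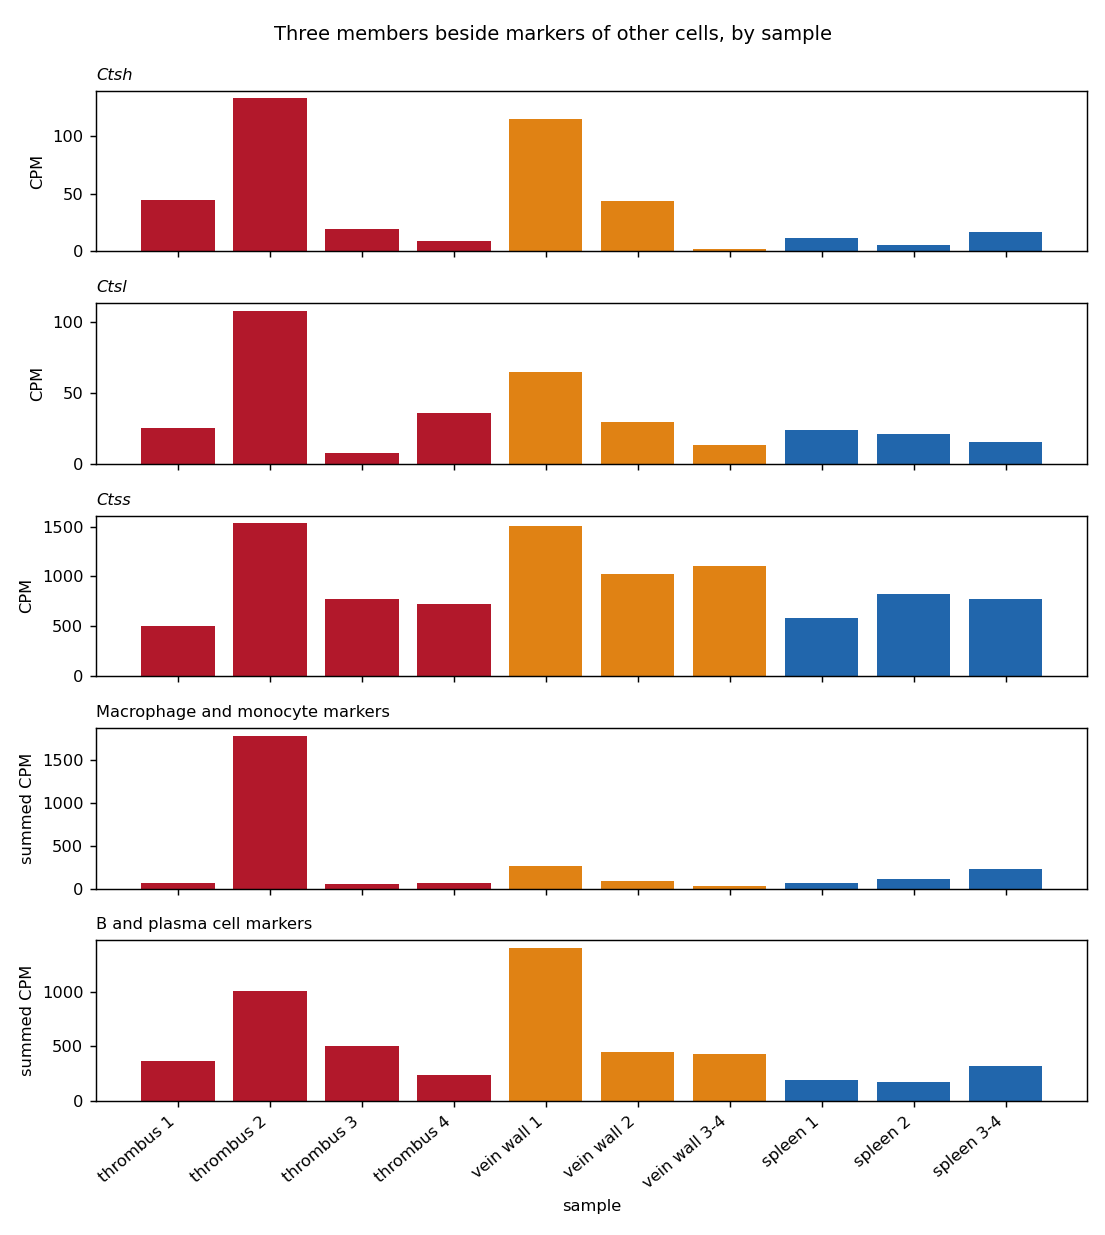
CPM of Ctsh, Ctsl and Ctss in each sample, above the summed CPM of macrophage and monocyte markers and of B and plasma cell markers. Thrombus 2 and vein wall 1 hold the highest bars of each panel, with 1787 and 268 CPM of macrophage and monocyte markers. In vein wall 1, Lyz2 alone had 239 CPM, and none of these markers was highest there.

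Markers of some other cell types were high in thrombus 2 or vein wall 1, and those of others were not. Erythroid markers summed to 2055 CPM in thrombus 2, 1821 CPM in spleen 1, 1564 CPM in thrombus 4 and 2.48 CPM in vein wall 1. The sum of the 6 platelet markers was highest in thrombus 2 (50.4 CPM). Pf4 alone had 47.1 CPM there and was the 1 platelet marker highest in that sample. The sum of pancreas acinar markers was highest in thrombus 4 (406 CPM) and that of fibroblast markers in vein wall 2 (67.2 CPM, with Dcn at 49.8 CPM). The sum of endothelial cell markers was highest in thrombus 1 (67.1 CPM), where Pecam1 alone had 65.1 CPM and Cdh5 0.195 CPM. The 13 joined macrophage and monocyte markers summed to 68.9, 1787, 52.7 and 65.2 CPM in thrombus 1 to 4, 268, 91.3 and 23.8 CPM in vein wall 1, 2 and 3-4, and 62.1, 107 and 228 CPM in spleen 1, 2 and 3-4. Of them, 7 were highest in thrombus 2, among them Lyz2 at 1357 CPM and Cd14 at 136 CPM, Itgam was not joined, and Fcgr1 had no read in vein wall. None was highest in vein wall 1, where Lyz2 had 239 CPM, C1qb 4.33 CPM and Cd14 0.127 CPM. B and plasma cell markers, 10 of 10 joined, summed to 239 to 1007 CPM in thrombus, 429 to 1399.8 CPM in vein wall and 177 to 319.9 CPM in spleen, with 7 of the 10 highest in vein wall 1.

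The 9 CD8 T and natural killer cell markers summed to 71.4, 276, 23.7 and 83.2 CPM in thrombus 1 to 4, 227, 58.7 and 71.6 CPM in vein wall 1, 2 and 3-4, and 156, 123 and 70.7 CPM in spleen 1, 2 and 3-4. Thrombus 2 had the highest marker sum and also the highest Ctsw level of the 10 samples, and in vein wall the highest Ctsw level was in vein wall 2, which had the lowest marker sum there. Of these 9 markers 3 had their highest mean in spleen, as Cst7 did: Klrb1c, Eomes and Klrk1, the last at 8.51, 15.5 and 17 CPM in thrombus, vein wall and spleen. The rest had their highest mean in thrombus or vein wall. The 10 dendritic cell markers summed to 99.2 to 365 CPM in thrombus, 141 to 192 CPM in vein wall and 135 to 166 CPM in spleen. Bst2 alone had 259 CPM of the 365 CPM in thrombus 2, where 5 of the 10 markers were highest. Clec9a and Clec10a were at 0 in spleen, and Siglech had 76.4 CPM in thrombus 2 and 12.8 CPM in vein wall 1. Neutrophil markers stayed at 0.573 to 8.58 CPM in all samples. The sort gated on CD4 and Foxp3-EGFP, and the part of these cells in the levels of the members was not tested.

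Intron reads were few for most members. For Ctsw the median share of gene reads that fell in introns was 7.93% in thrombus, 9.17% in vein wall and 10.4% in spleen. For Ctsh it was 9.91% in thrombus, 6.77% in vein wall and 6.47% in spleen. Cst7 had 2.45% in thrombus, 2.23% in vein wall and 2.04% in spleen, and Ctss 2.32% in thrombus, 1.25% in vein wall and 2.75% in spleen.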

How the data were processed

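Per the labels, a SMART-Seq kit turned 2 ng of RNA into cDNA over 12 cycles, and Nextera XT made libraries of 1 ng of it, which mark no strand and carry no molecular identifiers, so floors cover counting error only. The deposited files give counts of total, unique and intron reads per gene, made by the authors with an aligner and counter not given in the sources used here. Per the submitters' notes on processing, the build was GRCm38. Total exon reads include 13.6% to 21.8% with several matches.

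The 3 file sets were joined by Ensembl ID and, for set 2, by name and position, which kept 91.8% to 95.9% of exon reads. Near-duplicates were summed (chi-square per gene with at least 40 reads). Counts were fitted with edgeR 4.0.16 in R 4.3.3 (TMM, default filter on low counts, robust quasi-likelihood F test, tissue as the single factor, all 10 samples), and the procedure was tested on simulated data. SE is the absolute log2 fold change over the square root of F. DESeq2 1.42.0 and other settings were alternatives. Figures and summaries used Python 3.11.15.

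Named were all members and up to 4 genes per list with the smallest p over the 3 comparisons, plus any called gene; other genes with values were named after these were seen. Members and lists were chosen with earlier results of these data known. The labels carry an exp number that equals the replicate number in all 3 tissues, without saying whether it marks shared mice or a shared day, so replicate numbers were not taken to pair samples.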

Additional observations from a re-analysis of the deposited data

Results flagged for a closer look

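In thrombus, sample 2 stood apart from the other 3 for 2 of the 10 members. For Cst7 it had 732 CPM beside 336 to 366 CPM, and its gap to the nearest sample was 0.924 of the range of the group, over Dixon's 95% critical value for 4 samples. For Ctsw it had 220.0 CPM beside 104 to 119 CPM, with a gap of 0.868 of the range. Chance gives such a gap in about 1 in 20 groups. That rate is for a single group, while all 10 members were looked at. How many of all genes tested have such a gap in thrombus was not counted. Thrombus 2 belongs to file set 2 and held 1787 CPM of macrophage and monocyte markers. It was the highest of all 10 samples for 6 members (Ctsc, Ctsh, Ctsl, Ctss, Ctsw and Ctsz). The share of all genes tested that were highest in thrombus 2 was not counted, so this is not a result about the members. The part of the file set or of other cells in the values of thrombus 2 was not tested.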

How the results depend on the processing

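No member was called under any of the 21 alternatives in any of the 3 comparisons, and the smallest adjusted p of a member was 0.0771 (edgeR), for Ctsw in vein wall against spleen with 12 separate libraries and the replicate block (log2 fold change 1.08). The block changed no call of a member. Same-numbered libraries of different tissues had correlations of deviations of -0.11 to 0.45 over 12 pairs, and 6 of 12 libraries correlated best with their own number. The labels also give each library an exp number equal to its replicate number but do not say what it marks, and not every pair passed 0.1, so the numbers were not taken as pairs. With the block 48 genes were called higher and 4 lower in thrombus against spleen and 55 higher and 10 lower in vein wall against spleen, against 35 and 0, and 42 and 9, with 12 separate libraries and no block. Of 630 alternative log2 fold changes 63 had the opposite sign, and 13 of the 30 kept their sign under every alternative run, among them Cst7, Ctsw, Ctsl and Ctsb in both comparisons with spleen. Without set 2 the values of opposite sign were Ctsa 0.10 and Ctsc -0.15 in thrombus against spleen, Ctsh 0.07 and Cst7 -0.20 in thrombus against vein wall and Ctsz -0.04 in vein wall against spleen. With file set and without thrombus 2 the values of opposite sign were Ctsa 0.11, Ctsc -0.08 and Ctss -0.02 in thrombus against spleen, Ctsl -0.28 and Cst7 -0.09 in thrombus against vein wall and Ctsz -0.07 in vein wall against spleen. Without thrombus 2 and vein wall 1 the values of opposite sign were Ctsc -0.31, Ctss -0.11 and Ctsz -0.07 in thrombus against spleen, Ctsc -0.07 and Ctsz -0.10 in vein wall against spleen and Ctsh 0.07 and Cst7 -0.20 in thrombus against vein wall. With file set in the model the values of opposite sign were Ctsd -0.02 in thrombus against spleen and Ctsz -0.08 in vein wall against spleen. With 12 separate libraries the values of opposite sign were Ctsd -0.05 in thrombus against spleen, Ctsh 0.35 in thrombus against vein wall and Ctsz -0.04 in vein wall against spleen. With 12 separate libraries and the replicate block the values of opposite sign were Ctsd -0.07 in thrombus against spleen, Ctsh -0.22 and Ctsz -0.03 in vein wall against spleen and Ctsh 0.96 in thrombus against vein wall. On unique reads the values of opposite sign were Ctsd -0.39 in thrombus against spleen and Ctsd -0.05 in thrombus against vein wall. With file set and on unique reads the values of opposite sign were Ctsz -0.08 in vein wall against spleen. With no filter on low counts the values of opposite sign were Ctsz -0.02 and Cst7 -0.01 in thrombus against vein wall. Leaving out 1 sample at a time gave ranges across 0 in thrombus against spleen Ctsa -0.36 to 0.24, Ctsc -0.31 to 0.34, Ctsd -0.17 to 0.23, Ctss -0.10 to 0.48 and Ctsz -0.07 to 0.17; in vein wall against spleen Ctsa -0.53 to 0.12, Ctsc -0.07 to 0.48 and Ctsz -0.10 to 0.14; in thrombus against vein wall Ctsa -0.07 to 0.44, Ctsb -0.07 to 0.62, Ctsc -0.59 to 0.20, Ctsh -1.16 to 1.17, Ctsl -0.65 to 1.03, Ctsz -0.11 to 0.17 and Cst7 -0.32 to 0.15. Of all genes tested, 17 were called in thrombus and 13 in vein wall against spleen, against 53 and 48 with file set in the model and 105 and 122 by DESeq2. With no filter the median of all genes was 0.16 in thrombus against spleen, against 0.03. The cause of these changes was not tested. File sets differ in gene models, and the alternatives that leave out set 2, that leave out thrombus 2 together with vein wall 1, or that combine file set with leaving out thrombus 2 or with unique reads were chosen after seeing the data. The design has 3 or 4 samples per tissue, and the intervals above show the differences it leaves possible.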
